A study of Mus musculus with 12 samples.

Results

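Ubiquitin-conjugating enzymes and ubiquitin-specific proteases were examined in mouse spermatocytes labelled Rnaseh1 knock-out or wild type (WT). The genes were every entry of the expression table whose symbol begins with Ube2 or with Usp and a digit, 87 of 23235 genes, of which 35 are Ube2 and 52 are Usp genes. RNA came from sorted spermatocytes of C57BL/6 mice at leptotene/zygotene (LZ) or pachytene, successive stages of the first meiotic prophase. There were 4 groups of 3 libraries: knock-out pachytene, WT pachytene, knock-out LZ and WT LZ. The labels give the knock-out as Rnaseh1, the gene of an RNase that degrades RNA in RNA:DNA hybrids, and state neither the deleted part of the gene nor any driver line, age or pooling. Cells were sorted by flow cytometry, and libraries were made from poly(A) RNA through amplified cDNA. The labels do not say that the replicates of a group came from separate animals, so p-values measure the spread between these libraries, which may be technical.

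Ubiquitin is activated by an E1 enzyme, passed to an E2 conjugating enzyme of the Ube2 family, and attached to a target with the help of an E3 ligase. Ubiquitin-specific proteases, the largest family of deubiquitinases, remove it. In spermatocytes, ubiquitin on histones H2A and H2B takes part in the DNA damage response, in silencing of the unsynapsed X and Y chromosomes at pachytene, and later in the removal of histones. Some family members attach or remove related proteins such as NEDD8 or ISG15. Ube2v1 and Ube2v2 are E2 variants without a catalytic cysteine, and Usp6nl, a GTPase-activating protein, shares only the prefix of its symbol.

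Values are FPKM (fragments per kilobase of transcript, relative to library size), which the authors scaled between libraries by spike-in RNA, and are called scaled FPKM here. Values of a group are given in the order of replicates 1, 2 and 3. Of the 87 genes, 81 reached 1 scaled FPKM in 3 or more of the 12 libraries and were tested, 34 Ube2 and 47 Usp genes. Ube2ql1, Usp13, Usp27x, Usp29 and Usp51 fell below that filter, and Usp17l5 was listed at 0 in every library. Log2 changes are on the log2(value + 1) scale with the standard error (SE) of limma, and genes with a Benjamini-Hochberg adjusted p under 0.05 over all 15400 genes tested were called.

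Rnaseh1 itself was not lower in the knock-out libraries at pachytene, so they are named KO-labelled. Rnaseh1 ranged from 68.9 to 94.3 in KO-labelled and from 51.7 to 56.8 scaled FPKM in WT pachytene libraries, and from 11.0 to 18.3 in KO-labelled and 16.1 to 20.5 in WT LZ libraries. Neither difference was called (0.56 at pachytene, adjusted p = 0.0638, and -0.28 at LZ, adjusted p = 0.407). A transcript from which only part is deleted can still be counted, and every direction of a genotype difference below rests on the labels. The median log2 change over all genes was not 0: 0.37 for KO-labelled over WT at pachytene, -0.43 at LZ, 2.29 for pachytene over LZ in KO-labelled and 1.64 in WT libraries. Between 11146 and 15290 genes reached 1 scaled FPKM in a library. Counts are therefore repeated on values rescaled so that the median of each library's ratios to the average library was equal (median-ratio scaling). The 14 pachytene marker genes summed to 67596 to 105762 in KO-labelled and 38964 to 49951 in WT pachytene libraries, and to 1957 to 2312 in KO-labelled and 3185 to 4849.9 in WT LZ libraries. The 15 leptotene/zygotene markers in the table did not fall together at pachytene: 8 were called higher and 5 lower than at LZ in KO-labelled libraries, and 7 higher and 4 lower in WT libraries. Median-ratio scaling left 2 higher and 12 lower in KO-labelled, and 2 higher and 9 lower in WT libraries. Their sum, to which Sycp3 contributed most in every library, was 16034 to 16356 in KO-labelled and 11116 to 15346 in WT pachytene libraries, and 2844 to 4115 in KO-labelled and 4572 to 5343 in WT LZ libraries. Marker genes of other cells differed between the groups. The 12 round spermatid genes summed to 1814 to 9619 in KO-labelled and 37848 to 45783 in WT pachytene libraries, and to 803 to 5657 in KO-labelled and 14876 to 32214 in WT LZ libraries. All 12 were called lower in KO-labelled libraries at pachytene and 7 of 12 at LZ, and none was at 0 in any group. The 7 Leydig cell genes summed to 1242 to 5347 in KO-labelled and 2292 to 8622 in WT pachytene libraries, and to at most 89.1 in any LZ library. Insl3 contributed most to these pachytene sums. Of the 7 genes, 2 were called higher and 0 lower in KO-labelled pachytene libraries, and median-ratio scaling left 1 higher. The 7 peritubular and endothelial genes summed to 176 to 220 in KO-labelled and 539 to 705 in WT pachytene libraries, without overlap, and 3 of the 6 tested were lower and 1 higher in KO-labelled libraries. Sums at LZ were at most 29.9, and Vwf, an endothelial marker, stayed under 1 in every library. The 9 Sertoli cell genes summed to 528 to 594 in KO-labelled and 797 to 1094 in WT pachytene libraries, also without overlap. No single gene was called there as deposited, and 1 of 8 tested was lower after median-ratio scaling. At LZ their sums overlapped, but all 8 changes were positive, with a median of 0.46 beside -0.43 over all genes. Of the 8, 1 was called higher at LZ as deposited and 1 after median-ratio scaling, and 0 were lower. The sums of the 8 blood and macrophage genes overlapped between the genotypes at both stages, and 1 of 6 tested was higher in KO-labelled pachytene libraries. The part of these cells in the genotype differences below was not tested. In such bulk samples, fewer cells of a type and less RNA per cell cannot be told apart.

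The 3 highest genes held 39.2% to 50.1% of the summed Ube2 level and 20.5% to 44.0% of the summed Usp level of a library. Ube2s, which extends ubiquitin chains for the anaphase-promoting complex, and Ube2t, the E2 of the Fanconi anaemia pathway, led the Ube2 genes in all 4 groups. Ube2s averaged 3914 ± 921 in KO-labelled and 2373 ± 488 in WT pachytene libraries, and 408 ± 77.6 in KO-labelled and 601 ± 192 in WT LZ libraries (mean ± SD, n = 3 each). Ube2t averaged 3403 ± 279 in KO-labelled and 2516 ± 454 in WT pachytene libraries, and 299 ± 47.5 in KO-labelled and 404 ± 46.3 in WT LZ libraries. The ranges of Ube2s and Ube2t overlapped in both pachytene groups and in WT LZ libraries, and both lay above the next gene, Ube2d3, without overlap in every group. Ube2d3 belongs to the UbcH5 enzymes, which work with many E3 ligases.

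Usp1 and Usp2 led the Usp genes at pachytene. Usp1, which with Wdr48 removes ubiquitin from Fancd2 and PCNA, averaged 1309 ± 183 in KO-labelled and 650.2 ± 193 scaled FPKM in WT pachytene libraries. Usp2, a deubiquitinase whose loss impairs male fertility in mice, averaged 1220.1 ± 241 in KO-labelled and 653 ± 124 in WT pachytene libraries. The ranges of this pair overlapped in both groups, and no other Usp gene reached either range. At LZ the order was Usp2, Usp16 and Usp1 in both genotypes, with means of 46.9 ± 7.02, 37.7 ± 2.88 and 30.3 ± 2.55 in KO-labelled and 88.3 ± 21.4, 64.7 ± 9.21 and 51.5 ± 8.53 in WT libraries. Neighbours in that order overlapped, except Usp16 and Usp1 in KO-labelled libraries. Between 31 and 33 Ube2 genes reached 10 scaled FPKM in a pachytene library and 26 to 31 in an LZ library, and 34 to 39 and 17 to 27 of the Usp genes did. The Ube2 genes made up 0.293% to 0.434% and the Usp genes 0.0774% to 0.133% of the summed level of a library.

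At pachytene, most X-linked members were lower and some autosomal members higher in KO-labelled than in WT libraries. Of 34 Ube2 genes, 8 were called higher and 2 lower, and of 47 Usp genes, 16 were higher and 4 lower, where 24.6% of all genes tested were higher and 14.3% lower. After median-ratio scaling, 2 Ube2 genes were higher and 2 lower, and 7 Usp genes were higher and 5 lower, against 3.57% and 9.62% of all genes. When libraries were scaled to equal totals, 0 members were higher, and 4 Ube2 and 5 Usp genes were lower, against 0.273% and 9.18% of all genes. The median log2 change was 0.38 over the Ube2 and 0.53 over the Usp genes, beside 0.37 over all genes. All 3 KO-labelled libraries lay above all 3 WT libraries for 13 Ube2 and 23 Usp genes, 38.2% and 48.9% of those tested, beside 36.4% of all genes. They lay below for 3 Ube2 and 5 Usp genes, beside 18.0% of all genes.

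**Figure D1:**
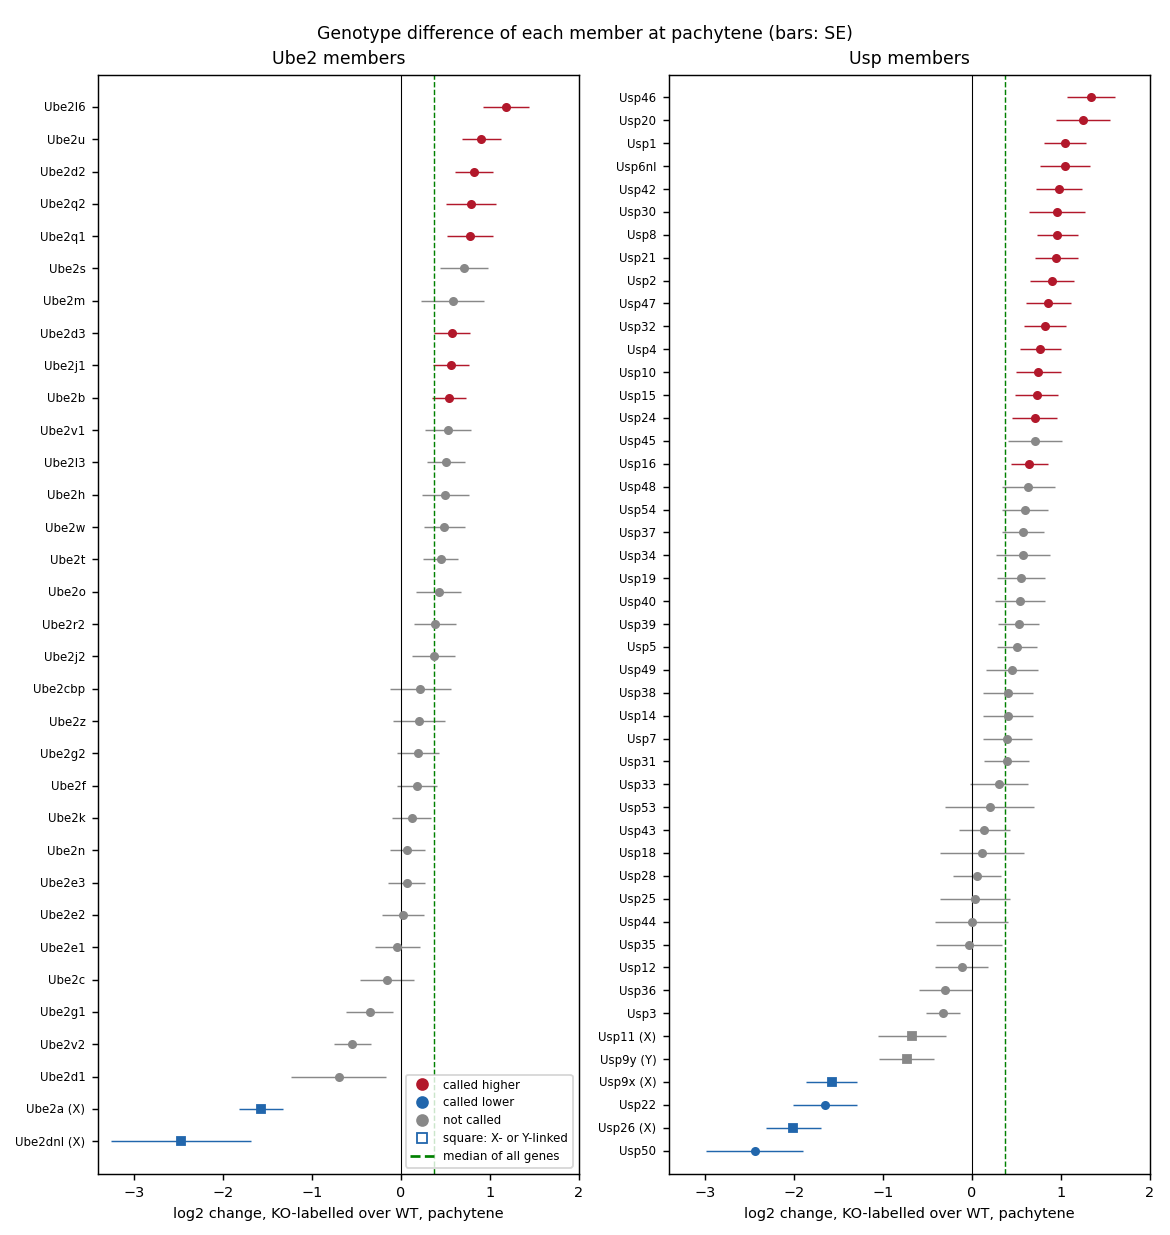
Log2 change (x axis) of KO-labelled over WT pachytene libraries for 33 of the 34 Ube2 (left) and the 47 Usp genes tested (right, y axis: genes in order of change), with bars of 1 SE and the median of all genes as a dashed line at 0.37. The 6 genes called lower, 4 of them X-linked (squares mark X- and Y-linked genes), lie at -1.57 or below, and the genes called higher lie between 0.54 and 1.34.

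Ube2a, Ube2dnl, Usp26 and Usp9x, 4 of the 5 X-linked members tested, were lower in KO-labelled pachytene libraries. Among all 612 X-linked genes tested, 59.3% were lower, against 12.3% of autosomal genes, and the 4 of 5 are read against that share of the chromosome. After median-ratio scaling 3 of the 5 were lower, against 41.8% of X-linked genes. Usp26, a deubiquitinase gene expressed mainly in testis, had 0.498, 1.70 and 1.31 in KO-labelled and 9.42, 5.54 and 7.86 scaled FPKM in WT pachytene libraries. The groups did not overlap, and the log2 change was -2.005 ± 0.31 SE, adjusted p = 0.00172. Usp9x, a deubiquitinase of broad expression, had 2.93, 2.71 and 5.35 in KO-labelled and 14.6, 9.45 and 14.1 in WT pachytene libraries. Its groups did not overlap either, and the change was -1.57 ± 0.28 SE, adjusted p = 0.00423. Ube2dnl, an X-linked relative of the UbcH5 enzymes, had 3.63, 1.03 and 17.3 in KO-labelled and 35.2, 34.2 and 21.9 in WT pachytene libraries. KO-labelled replicate 3 lay close to the lowest WT library, and the change was -2.47 ± 0.79 SE, adjusted p = 0.0301. That call was lost without WT pachytene replicate 1 or 2 or KO-labelled pachytene replicate 1 or 2, with log2 changes of -2.35, -2.37, -2.33 and -1.74 in that order. It was lost as well with a pseudocount of 0.1 (adjusted p = 0.0580), no filter (0.0589), median-ratio scaling (0.101) and equal totals (0.151). The 2 lower Ube2 calls became 1 without any of these libraries. Usp11, which acts in DNA repair with Brca2, was the X-linked member not called, with 1.65, 0.854 and 0.430 in KO-labelled and 3.75, 0.942 and 2.06 in WT pachytene libraries (-0.67 ± 0.38 SE, adjusted p = 0.163). Usp9y, the Y-linked homologue of Usp9x, was not called, with 0.496, 0.564 and 1.89 in KO-labelled and 2.98, 1.43 and 2.21 in WT pachytene libraries (-0.73 ± 0.31 SE, adjusted p = 0.0689). Of the X-linked pair below the filter, Usp27x had 0.183 to 0.462 in KO-labelled and 0.531 to 1.48 in WT pachytene libraries, and Usp51 reached 2.74 in KO-labelled replicate 3 and 0.789 at most in WT libraries.

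Ube2a and Ube2b are the mouse homologues of yeast RAD6, act with Rad18 on PCNA and with Rnf20 and Rnf40 on histone H2B, and encode nearly identical proteins. Ube2a is on the X chromosome and Ube2b on chromosome 11, and mice without Ube2b are male-infertile with altered synaptonemal complexes. Ube2a had 9.42, 13.4 and 18.3 in KO-labelled and 45.1, 39.04 and 40.3 scaled FPKM in WT pachytene libraries. All KO-labelled values lay below all WT values, and the change was -1.57 ± 0.25 SE, adjusted p = 0.00207. Ube2b had 1152, 1043 and 1021 in KO-labelled and 605, 735 and 889 in WT pachytene libraries. All its KO-labelled values lay above all WT values, and the change was 0.54 ± 0.19 SE, adjusted p = 0.0386. The call of Ube2b was lost under median-ratio scaling (0.20, adjusted p = 0.368) and its sign turned when libraries were scaled to equal totals (-0.03, adjusted p = 0.924). A fit of only the pachytene libraries gave 0.54 with an adjusted p of 0.0658. The call was also lost without KO-labelled LZ replicate 2 (0.54), WT pachytene replicate 1 (0.41) or 2 (0.55), or KO-labelled pachytene replicate 1 (0.49) or 2 (0.56).

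The ratio of the pair within a library does not depend on the scaling. Ube2b over Ube2a was 122, 77.9 and 55.8 in KO-labelled and 13.4, 18.8 and 22.1 in WT pachytene libraries. At LZ it was 4.23, 3.78 and 3.88 in KO-labelled and 4.22, 4.15 and 2.95 in WT libraries. The pachytene groups did not overlap. This follows from Ube2b lying above and Ube2a below WT in all KO-labelled pachytene libraries, and is no separate result. The LZ groups overlapped, and every pachytene library lay above every LZ library. Reads of near-identical coding regions can be split between this pair, and how the authors' counting treated them is not given in the sources used here. In the RefSeq table, Ube2b also overlaps Cdkl3.

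**Figure D2:**
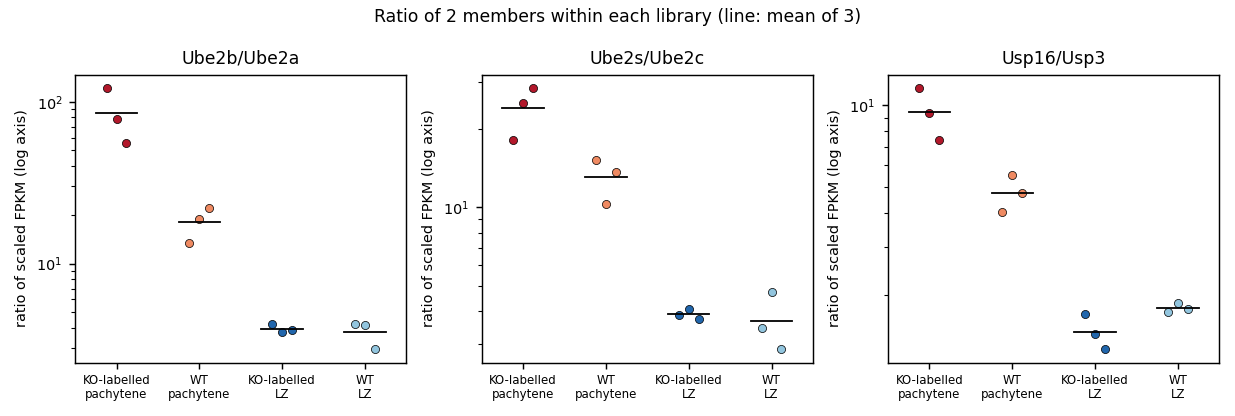
Ratio of scaled FPKM of 2 members within each library (y axis, log scale) for Ube2b over Ube2a, Ube2s over Ube2c and Usp16 over Usp3, with 3 libraries a group (points) and their mean (line) in KO-labelled and WT pachytene and KO-labelled and WT LZ groups (x axis). Ube2b over Ube2a lies between 55.8 and 122 in KO-labelled pachytene libraries, above 13.4 to 22.1 in WT pachytene libraries and at most 4.23 at LZ.

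The promoters of members whose levels diverged are shown so that the X-linked and autosomal genes can be compared: Ube2a and Usp26 of the X chromosome, and Ube2b and Usp2, which were higher in KO-labelled pachytene libraries. The sequences are those of RefSeq on GRCm38.p6, from 250 bases before to 50 after the gene start, 5′ to 3′ on the strand of the gene. Ube2a is at chrX:36874045-36874344 on the plus strand, Usp26 at chrX:51801184-51801483 on the minus strand, Ube2b at chr11:52000737-52001036 on the minus strand (1 of 2 entries) and Usp2 at chr9:44084670-44084969 on the plus strand. Capitals mark TGACG or CGTCA, the CRE half-site on either strand, and CCAAT or ATTGG, the CCAAT box on either strand.
Ube2a: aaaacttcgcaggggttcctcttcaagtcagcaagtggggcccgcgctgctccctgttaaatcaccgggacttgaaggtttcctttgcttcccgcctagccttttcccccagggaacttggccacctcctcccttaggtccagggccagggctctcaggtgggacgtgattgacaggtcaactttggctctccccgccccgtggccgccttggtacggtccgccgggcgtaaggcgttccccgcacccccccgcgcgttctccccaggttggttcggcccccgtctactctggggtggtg
Usp26: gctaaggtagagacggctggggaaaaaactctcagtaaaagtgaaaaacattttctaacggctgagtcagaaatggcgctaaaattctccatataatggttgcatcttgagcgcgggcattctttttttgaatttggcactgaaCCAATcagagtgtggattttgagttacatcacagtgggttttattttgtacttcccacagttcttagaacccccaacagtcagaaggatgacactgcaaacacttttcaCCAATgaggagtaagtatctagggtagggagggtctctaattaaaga
Ube2b: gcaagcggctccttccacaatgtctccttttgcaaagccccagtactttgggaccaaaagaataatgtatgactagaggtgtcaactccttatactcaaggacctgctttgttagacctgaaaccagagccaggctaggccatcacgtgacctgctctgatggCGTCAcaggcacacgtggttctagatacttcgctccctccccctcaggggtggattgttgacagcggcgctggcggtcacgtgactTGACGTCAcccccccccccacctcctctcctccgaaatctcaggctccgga
Usp2: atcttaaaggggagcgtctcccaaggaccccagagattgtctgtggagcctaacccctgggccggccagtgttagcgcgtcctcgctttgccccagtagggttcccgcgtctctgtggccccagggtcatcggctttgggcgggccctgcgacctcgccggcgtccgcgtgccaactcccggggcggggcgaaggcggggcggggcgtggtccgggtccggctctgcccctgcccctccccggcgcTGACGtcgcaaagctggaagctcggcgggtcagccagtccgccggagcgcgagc
The Ube2b window held the CRE half-site 3 times, of which 2 overlap each other, and that of Usp2 held it 1 time. Usp26 held the CCAAT box 2 times, and Ube2a held neither. The half-site was found in 20.8% of the 32851 promoters of the same length and in 22 of the 68 members with an entry (32.4%), and the CCAAT box in 37.4% of promoters and 18 of these members (26.5%). The shares of promoters count entries, whereas the shares of members count genes. The 68 members have 80 entries, so these shares are not directly comparable. GC content was 64.0% for Ube2a, 41.3% for Usp26, 55.7% for Ube2b and 71.7% for Usp2.

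Among the autosomal members, Usp22 and Usp50 were called lower in KO-labelled pachytene libraries, 2 of 75 tested, where 12.3% of all autosomal genes were lower. Usp22, the deubiquitinase of the SAGA complex that acts on histone H2B, had 3.46, 6.17 and 10.3 in KO-labelled and 27.1, 14.6 and 24.5 scaled FPKM in WT pachytene libraries, a change of -1.65 ± 0.36 SE, adjusted p = 0.00968. Usp50, which is predicted to lack protease activity, had 6.02, 5.41 and 31.5 in KO-labelled and 64.8, 57.01 and 59.9 in WT pachytene libraries, a change of -2.44 ± 0.55 SE, adjusted p = 0.0104. Neither pair of groups overlapped, and KO-labelled replicate 3 was the nearest to WT for both. The summed round spermatid genes of the KO-labelled replicates were 8028, 1814 and 9619, against 45192, 45783 and 37848 in WT pachytene libraries, and the part of these cells in the Usp50 and Usp22 differences was not tested. In the RefSeq table Usp22 overlaps Tnfrsf13b. The calls of Ube2a, Usp9x, Usp22, Usp26 and Usp50 held under all 20 alternatives, which were other scalings, pseudocounts, filters and fits and the omission of each library.

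**Figure D3:**
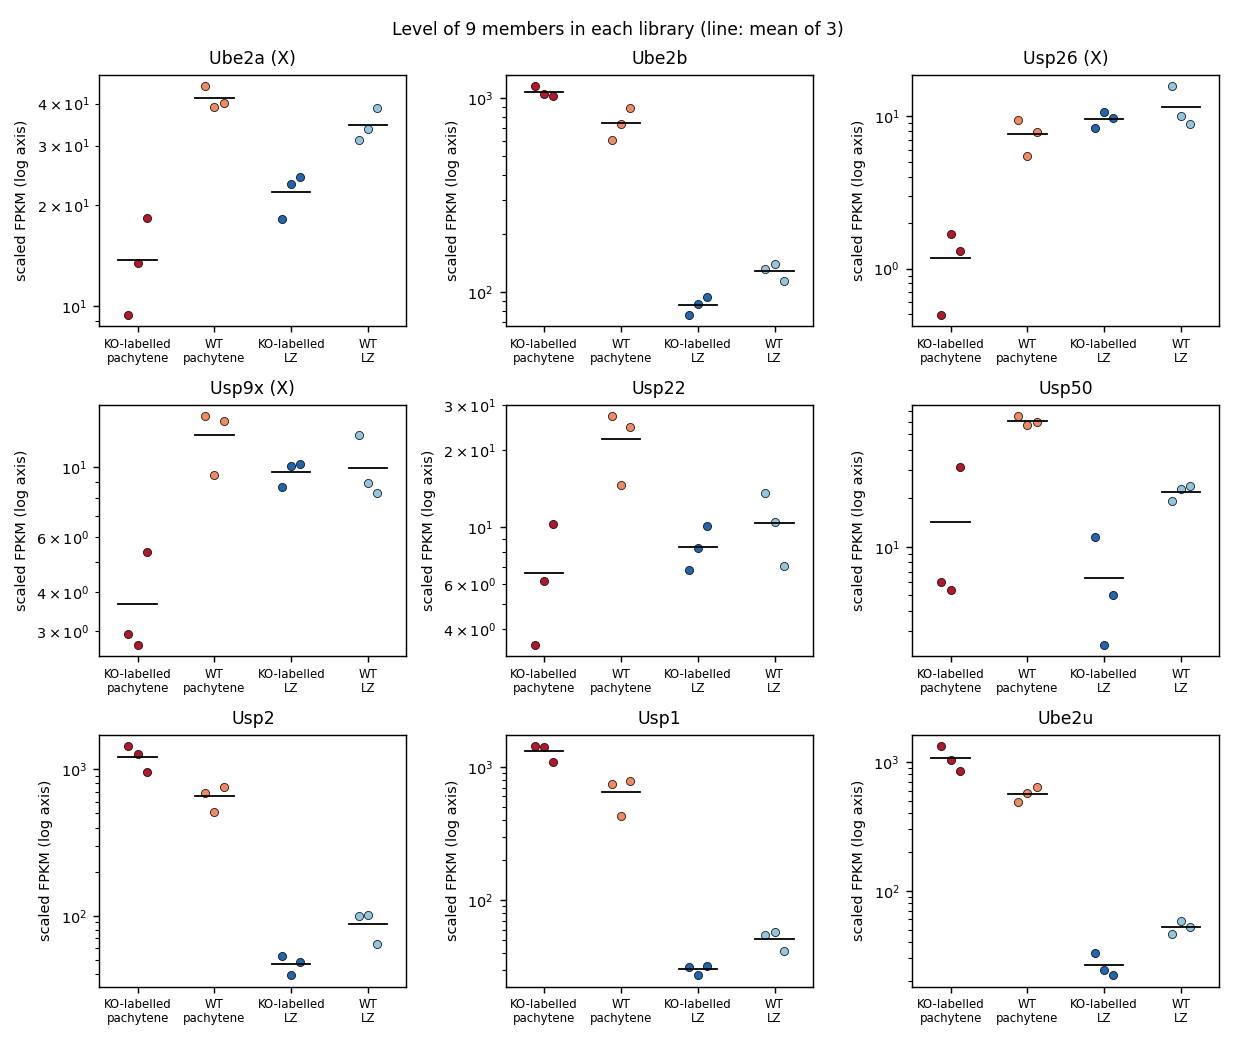
Level of 9 members in each library (y axis, scaled FPKM, log scale), with 3 libraries a group (points) and their mean (line) in KO-labelled and WT pachytene and KO-labelled and WT LZ groups (x axis). Ube2a, Usp26, Usp9x, Usp22 and Usp50 are lower in all KO-labelled than in all WT pachytene libraries, and Ube2b, Usp2, Usp1 and Ube2u are higher.

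The members called higher in KO-labelled pachytene libraries were all autosomal, 24 of 75, where 25.6% of all autosomal genes were higher. Ube2l6, the E2 of ISG15, had 290.0, 269 and 225 in KO-labelled and 126, 94.1 and 124 scaled FPKM in WT pachytene libraries, a change of 1.19 ± 0.26 SE, adjusted p = 0.00972. Ube2u, a little-studied E2, had 1322, 1044 and 854 in KO-labelled and 487, 574 and 639 in WT pachytene libraries, a change of 0.91 ± 0.22 SE, adjusted p = 0.0139. Ube2d2, a UbcH5 enzyme, changed by 0.83 ± 0.21 SE, adjusted p = 0.0166, and Ube2q2, an E2 with an extended N terminus, by 0.79 ± 0.28 SE, adjusted p = 0.0435. None of these 4 pairs of groups overlapped. Usp46, which pairs with Wdr48 and Wdr20, had 167, 156 and 116 in KO-labelled and 55.6, 46.3 and 69.5 in WT pachytene libraries, a change of 1.34 ± 0.27 SE, adjusted p = 0.00705. Usp20, a deubiquitinase bound by the VHL protein, had 115, 102 and 87.2 in KO-labelled and 37.7, 37.5 and 52.3 in WT pachytene libraries, a change of 1.24 ± 0.30 SE, adjusted p = 0.0141. Usp1 had 1427, 1402 and 1098 in KO-labelled and 743, 429 and 779 in WT pachytene libraries, a change of 1.05 ± 0.24 SE, adjusted p = 0.0115. Usp46, Usp20 and Usp1 did not overlap between the genotypes. Usp6nl changed by 1.05 ± 0.28 SE, adjusted p = 0.018.

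These higher calls depended on the scaling and on single libraries. With equal totals all of them were lost. Median-ratio scaling ended the calls of Ube2u (0.56, adjusted p = 0.12), Ube2q2 (0.44, adjusted p = 0.18) and Usp6nl (0.67, adjusted p = 0.101), but not those of Ube2l6, Ube2d2, Usp46, Usp20 and Usp1. Ube2q2 was also lost with a pseudocount of 0.1, no filter or a fit of only the pachytene libraries (adjusted p = 0.0576 to 0.0601). The 8 Ube2 and 16 Usp calls became 1 and 2 without KO-labelled pachytene replicate 1, 1 and 3 without KO-labelled pachytene replicate 2, 3 and 8 without WT pachytene replicate 1, and 2 and 4 without WT pachytene replicate 2. The Ube2 calls became 5 without KO-labelled LZ replicate 2 and 12 without KO-labelled pachytene replicate 3. Ube2l6, Usp46 and Usp1 were called without each of the 12 libraries in turn. The calls of Ube2u and Usp20 were lost without KO-labelled pachytene replicate 1 (0.74 and 1.15) or 2 (0.91 and 1.23). Those of Ube2d2 and Usp6nl were lost without the same libraries (0.74 and 0.95, 0.82 and 1.04) or WT pachytene replicate 2 (0.64 and 0.79). Ube2q2 was lost without WT LZ replicate 2 or KO-labelled LZ replicate 3 (0.79 each), WT pachytene replicate 1 (0.88) or 2 (0.50), or KO-labelled pachytene replicate 1 (0.62) or 2 (0.75).

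By role, deubiquitinases of histones H2A and H2B split at pachytene. Of 8 tested, Usp46, Usp21 and Usp16 were higher and Usp22 lower, and Usp3, Usp12, Usp44 and Usp49 were not called, beside 24.6% of all genes higher and 14.3% lower. After median-ratio scaling 2 of the 8 were higher and 2 lower, Usp22 and Usp3 (-0.64, adjusted p = 0.0155), against 3.57% and 9.62% of all genes. Usp16, which acts on H2A in mitosis, had 466, 381 and 290.5 in KO-labelled and 207, 247 and 261 scaled FPKM in WT pachytene libraries (0.65 ± 0.21 SE, adjusted p = 0.0322), and Usp21, a further H2A deubiquitinase, had 194, 161 and 136 in KO-labelled and 79.6, 69.8 and 104 in WT pachytene libraries (0.95 ± 0.24 SE, adjusted p = 0.0164). Usp3, also active on H2A, had 40.2, 40.7 and 39.1 in KO-labelled and 51.4, 44.8 and 55.02 in WT pachytene libraries, without overlap but not called (-0.32 ± 0.19 SE, adjusted p = 0.183). Usp16 over Usp3 was 11.6, 9.36 and 7.43 in KO-labelled and 4.03, 5.52 and 4.74 in WT pachytene libraries, without overlap. This follows from Usp16 lying above and Usp3 below WT in all KO-labelled pachytene libraries. The calls of Usp16 and Usp21 were lost without WT pachytene replicate 1 (0.55 and 0.92) or 2 (0.68 and 0.82), or KO-labelled pachytene replicate 1 (0.49 and 0.82) or 2 (0.63 and 0.95), and that of Usp16 was lost under median-ratio scaling (0.30, adjusted p = 0.235) and in a fit of only the pachytene libraries (adjusted p = 0.0530).

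Of 7 deubiquitinases grouped for their expression in testis, Usp2, Usp8 and Usp42 were higher and Usp26 and Usp50 lower at pachytene. Of all genes, 24.6% were higher and 14.3% lower. The same 5 were called after median-ratio scaling, against 3.57% of all genes higher and 9.62% lower. Usp2 had 1433, 1268 and 959 in KO-labelled and 692, 514 and 752 scaled FPKM in WT pachytene libraries (0.90 ± 0.24 SE, adjusted p = 0.0183). Usp8, an endosomal deubiquitinase that localises to the acrosome, had 601, 509.9 and 439 in KO-labelled and 290.4, 190.4 and 329 in WT pachytene libraries (0.96 ± 0.23 SE, adjusted p = 0.013). Usp42 had 218, 197 and 167 in KO-labelled and 108, 69.8 and 122 in WT pachytene libraries (0.98 ± 0.26 SE, adjusted p = 0.0182). All KO-labelled values of these 3 genes lay above all WT values. Without KO-labelled pachytene replicate 1 the calls of all 3 were lost (0.77, 0.85 and 0.89), and without KO-labelled pachytene replicate 2 (0.86 and 0.96) or WT pachytene replicate 2 (0.74 and 0.74) those of Usp2 and Usp42. Usp25 had 22.8, 22.6 and 20.5 in KO-labelled and 37.1, 11.8 and 21.96 in WT pachytene libraries, with overlap, and was not called.

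Of the 5 E2 genes grouped for meiosis or testis, Ube2b, Ube2j1, Ube2u and Ube2q1 were higher at pachytene, beside 24.6% of all genes. Ube2t was not called. Ube2j1, an E2 of the endoplasmic reticulum needed for sperm formation in mice, had 289, 278 and 244 in KO-labelled and 176, 162 and 211 scaled FPKM in WT pachytene libraries (0.57 ± 0.20 SE, adjusted p = 0.0429). Ube2q1 had 143, 142 and 127 in KO-labelled and 92.7, 65.3 and 83.3 in WT pachytene libraries (0.78 ± 0.26 SE, adjusted p = 0.0327). Ube2t had 3581, 3545 and 3081 in KO-labelled and 1993, 2742 and 2813 in WT pachytene libraries, which did not overlap but missed the threshold (0.45 ± 0.20 SE, adjusted p = 0.0812). After median-ratio scaling, 0 of these 5 were called, against 3.57% of all genes higher and 9.62% lower. Ube2j1 was lost as well with a pseudocount of 0.1 (adjusted p = 0.052) and in a fit of only the pachytene libraries (0.0557). The calls of Ube2j1 and Ube2q1 were lost without WT pachytene replicate 1 (0.54 and 0.89) or 2 (0.48 and 0.64), or KO-labelled pachytene replicate 1 (0.52 and 0.75) or 2 (0.55 and 0.75). Ube2j1 was also lost without WT LZ replicate 2 or KO-labelled LZ replicate 2 or 3 (0.57 each).

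Neither partner of the anaphase-promoting complex passed the test at pachytene, and their ratio, which was not tested, did not overlap between the genotypes. Ube2c, which starts the chains, had 261, 165 and 102 in KO-labelled and 145, 195 and 214 scaled FPKM in WT pachytene libraries (-0.16 ± 0.30 SE, adjusted p = 0.679). Ube2s, which extends them, had 4722, 4109.9 and 2912 in KO-labelled and 2188, 2004 and 2925 in WT pachytene libraries (0.71 ± 0.27 SE, adjusted p = 0.0516). Both overlapped between the genotypes. Ube2s over Ube2c was 18.1, 24.96 and 28.7 in KO-labelled and 15.1, 10.3 and 13.7 in WT pachytene libraries, which did not overlap. At LZ the ratio was 3.89, 4.09 and 3.74 in KO-labelled and 3.44, 4.76 and 2.86 in WT libraries, which overlapped. Of the further ratios formed, those of Ube2v1 over Ube2v2 and Usp9x over Usp9y overlapped between the genotypes at pachytene. Those of Usp44 over Usp46, Usp8 over Usp50 and Usp2 over Usp22 did not. For Usp8 over Usp50 and Usp2 over Usp22 this follows from each gene being separated between the genotypes, in opposite directions.

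The enzymes of lysine-63 chains, Ube2n and its cofactors Ube2v1 and Ube2v2, which work with Rnf8 in the DNA damage response, were not called at pachytene. Ube2n had 340.0, 336 and 249.8 in KO-labelled and 283, 266 and 323 scaled FPKM in WT pachytene libraries. Ube2v1 had 535, 562 and 316 in KO-labelled and 267, 283 and 413 in WT pachytene libraries. Ube2v2 had 61.4, 63.5 and 84.6 in KO-labelled and 89.98, 108 and 106 in WT pachytene libraries, lower in all 3 but short of the threshold (-0.54 ± 0.21 SE, adjusted p = 0.0544). Ube2v2 passed after median-ratio scaling (-0.87, adjusted p = 0.0247). Of the E2 enzymes of other modifiers, Ube2l6 was called and the NEDD8 enzymes Ube2m and Ube2f were not. Ube2m had 442, 428 and 256 in KO-labelled and 363, 172 and 228 in WT pachytene libraries, and Ube2f had 306, 288 and 212 in KO-labelled and 179.9, 258 and 274 in WT pachytene libraries. Both overlapped between genotypes. Usp14 and Usp5, which act at the proteasome and on free ubiquitin chains, were not called: Usp14 had 142, 128 and 123 in KO-labelled and 98.8, 76.03 and 127 in WT pachytene libraries, and Usp5 had 152, 144 and 139 and 95.8, 91.6 and 118, without overlap (0.51 ± 0.23 SE, adjusted p = 0.0819).

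Of 5 genes grouped for endosomes, the endoplasmic reticulum and mitochondria, Usp8, Usp6nl, Usp30 and Usp32 were higher at pachytene and Usp19 was not called, beside 24.6% of all genes higher. After median-ratio scaling 1 of the 5, Usp8, was higher, against 3.57% of all genes. Usp30, a deubiquitinase of the outer mitochondrial membrane, changed by 0.96 ± 0.32 SE, adjusted p = 0.0328, and Usp32 by 0.82 ± 0.23 SE, adjusted p = 0.0207. Of 7 genes of DNA repair, Usp1 and Usp47 were higher and 0 lower, beside 24.6% and 14.3% of all genes. Usp47, which acts on DNA polymerase beta, changed by 0.86 ± 0.25 SE, adjusted p = 0.0236. Usp7, Usp11, Usp28, Usp45 and Usp48 of the same group were not called. After median-ratio scaling only Usp1 was called, as higher, against 3.57% of all genes higher and 9.62% lower. Of 3 genes grouped for immune signalling, the related Usp4 (0.77 ± 0.23 SE, adjusted p = 0.0238) and Usp15 (0.73 ± 0.24 SE, adjusted p = 0.0351) were higher, beside 24.6% of all genes. Usp18, the protease of ISG15, was not called (0.12 ± 0.47 SE, adjusted p = 0.845). After median-ratio scaling 0 of these 3 were called, against 3.57% of all genes higher and 9.62% lower. The changes were then 0.42, adjusted p = 0.132 for Usp4 and 0.38, adjusted p = 0.255 for Usp15. Of the 5 E2 enzymes of lysine-48 chains, Ube2g1, Ube2g2, Ube2h, Ube2k and Ube2r2, 0 were called, with log2 changes from -0.35 to 0.50. Of all genes, 24.6% were higher and 14.3% lower.

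At LZ, calls were of lower levels in KO-labelled than in WT libraries and came with a general shift. Of 34 Ube2 genes, 9 were lower and 0 higher, and of 47 Usp genes, 5 were lower and 0 higher, where 12.9% of all genes tested were lower and 0.136% higher. At an unadjusted p under 0.05, 18 Ube2 and 14 Usp genes were lower and 0 higher. The share of all genes at that threshold is not given here, so these counts are not read as a result about the families. The median log2 change was -0.57 over the Ube2 and -0.39 over the Usp genes, beside -0.43 over all genes. After median-ratio scaling 0 members were called in either direction, against 0.688% of all genes lower and 0.39% higher, and with equal totals 1 Usp gene was higher, against 0.883% lower and 0.916% higher. Of the X-linked members, 0 were called at LZ, where 4.25% of X-linked genes were lower and 0.654% higher. All 3 KO-labelled libraries lay below all 3 WT libraries for 23 Ube2 and 18 Usp genes, 67.6% and 38.3% of those tested, beside 36.5% of all genes.

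Usp44 and Usp50 had the largest LZ changes. Usp44, which acts on histone H2B and in the spindle checkpoint, had 10.5, 1.68 and 4.22 in KO-labelled and 22.3, 23.4 and 23.5 scaled FPKM in WT LZ libraries. The WT values lay close together, all KO-labelled values were below them, and the change was -2.14 ± 0.41 SE, adjusted p = 0.0153. Usp50 had 11.6, 2.46 and 5.05 in KO-labelled and 19.3, 22.7 and 23.7 in WT LZ libraries, a change of -1.83 ± 0.55 SE, adjusted p = 0.0437. In both genes KO-labelled replicate 1 was the highest of its group and replicate 2 the lowest. The summed round spermatid genes of the same libraries were 5657, 803 and 2227 in KO-labelled and 32214, 17033 and 14876 in WT LZ libraries, and their part in these differences was not tested. After median-ratio scaling the changes were -1.76, adjusted p = 0.083 for Usp44 and -1.40, adjusted p = 0.238 for Usp50. At pachytene Usp44 had 86.6, 84.1 and 67.05 in KO-labelled and 97.6, 52.99 and 94.8 in WT libraries, which overlapped. In the RefSeq table Usp44 overlaps Metap2.

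**Figure D4:**
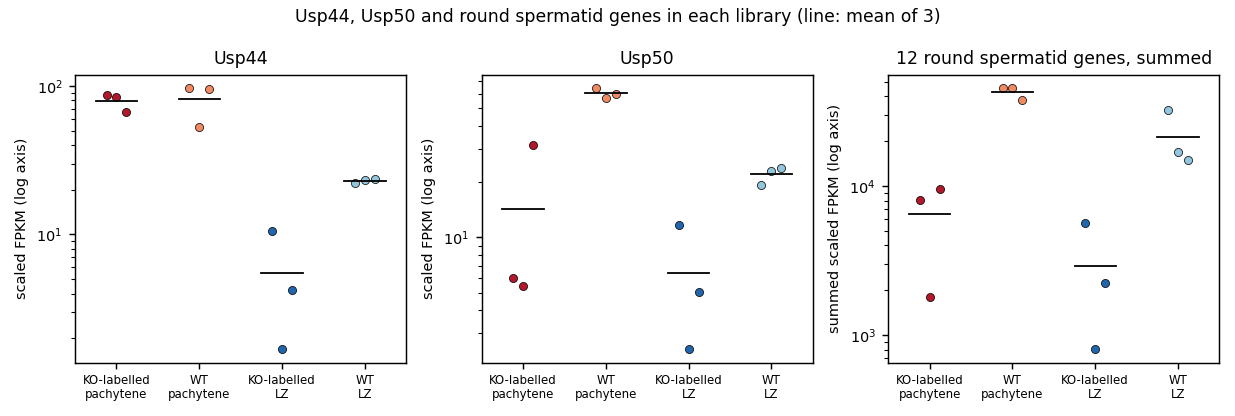
Usp44, Usp50 and the sum of 12 round spermatid genes in each library (y axis, scaled FPKM, log scale), with 3 libraries a group (points) and their mean (line) in KO-labelled and WT pachytene and KO-labelled and WT LZ groups (x axis). Usp50 and the spermatid sum are lower in all KO-labelled libraries than in all WT libraries at both stages, whereas Usp44 is lower at LZ and overlaps at pachytene.

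The other LZ calls were of smaller size. Ube2w, an E2 that modifies protein N termini, had 25.5, 31.1 and 34.03 in KO-labelled and 71.5, 67.6 and 46.3 scaled FPKM in WT LZ libraries (-0.99 ± 0.23 SE, adjusted p = 0.0224). Ube2u had 32.8, 24.2 and 22.2 in KO-labelled and 46.5, 58.6 and 51.9 in WT LZ libraries (-0.98 ± 0.22 SE, adjusted p = 0.0207). Ube2l3, an E2 of HECT and RBR ligases, changed by -0.86 ± 0.22 SE, adjusted p = 0.0272. All 3 enzymes of lysine-63 chains were lower: Ube2n had 51.7, 52.3 and 63.1 in KO-labelled and 114, 105 and 85.8 in WT LZ libraries (-0.85 ± 0.20 SE, adjusted p = 0.022), Ube2v1 had 59.02, 53.6 and 65.8 and 126, 109 and 88.5 in the same order of groups, and Ube2v2 had 20.4, 23.4 and 28.9 and 39.3, 44.1 and 37.3. Ube2f changed by -0.79 ± 0.23 SE, adjusted p = 0.04 and Ube2d3 by -0.69 ± 0.20 SE, adjusted p = 0.0412. Among the Usp genes, Usp2 had 53.1, 39.3 and 48.2 in KO-labelled and 100.2, 101 and 63.6 in WT LZ libraries (-0.88 ± 0.24 SE, adjusted p = 0.0354), Usp16 had 40.9, 37.02 and 35.3 and 67.98, 71.9 and 54.4 (-0.76 ± 0.21 SE, adjusted p = 0.0367), and Usp8 had 19.7, 19.8 and 21.1 and 34.6, 39.9 and 29.5 (-0.74 ± 0.23 SE, adjusted p = 0.0489). None of these groups overlapped between the genotypes. The RAD6 pair was not called at LZ: Ube2a had 18.1, 23.00 and 24.3 in KO-labelled and 31.1, 33.6 and 38.7 in WT LZ libraries, and Ube2b had 76.7, 86.97 and 94.2 and 132, 139.5 and 114.

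These LZ calls rested on single libraries as well. The 9 Ube2 and 5 Usp calls became 0 and 0 without WT LZ replicate 1, WT LZ replicate 2 or KO-labelled LZ replicate 3, 0 and 1 without KO-labelled LZ replicate 2, and 14 and 7 without WT LZ replicate 3. The Ube2 calls became 3 without KO-labelled LZ replicate 1 and 5 without KO-labelled pachytene replicate 2, and the Usp calls became 3 without WT pachytene replicate 1 or KO-labelled pachytene replicate 2. Of the 14 LZ calls, 0 held under every alternative. The call of Usp44 was lost without WT LZ replicate 1 (-2.17), WT LZ replicate 2 (-2.13) or KO-labelled LZ replicate 3 (-2.11), and in a fit of the LZ libraries only (-2.14, adjusted p = 0.0516). Correlations of log2 values between libraries were 0.923 to 0.952 within the KO-labelled LZ group and 0.967 to 0.975 within the other groups.

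Between the stages, most members had higher scaled FPKM at pachytene than at LZ in both genotypes, as most genes did. In KO-labelled libraries 30 of 34 Ube2 genes were higher and 1 lower, and 39 of 47 Usp genes were higher and 4 lower, where 76.8% of all genes were higher and 2.83% lower. The lower Ube2 count became 0 without KO-labelled LZ replicate 2 or 3 or KO-labelled pachytene replicate 1. After median-ratio scaling the counts were 8 higher and 13 lower for Ube2, and 16 higher and 11 lower for Usp genes, against 31.7% and 29.3% of all genes. With equal totals they were 2 higher and 18 lower for Ube2, and 5 higher and 21 lower for Usp genes, against 18.7% and 41.1% of all genes. The median log2 change was 2.90 over the Ube2 and 2.85 over the Usp genes, beside 2.29 over all genes. In WT libraries 30 Ube2 genes were higher and 0 lower, and 41 Usp genes were higher and 0 lower, where 80.9% of all genes were higher and 0.487% lower. At an unadjusted p under 0.05, 0 of either family were lower, and the share of all genes at that threshold is not given here. Without WT pachytene replicate 1 the lower Usp count at adjusted p became 1. After median-ratio scaling 5 Ube2 genes were higher and 12 lower, and 8 Usp genes were higher and 8 lower, against 20.4% and 17.8% of all genes. With equal totals, 2 Ube2 genes were higher and 17 lower, and 4 Usp genes were higher and 11 lower, against 13.7% and 24.9% of all genes. The median there was 1.79 over the Ube2 and 1.73 over the Usp genes, beside 1.64 over all genes.

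**Figure D5:**
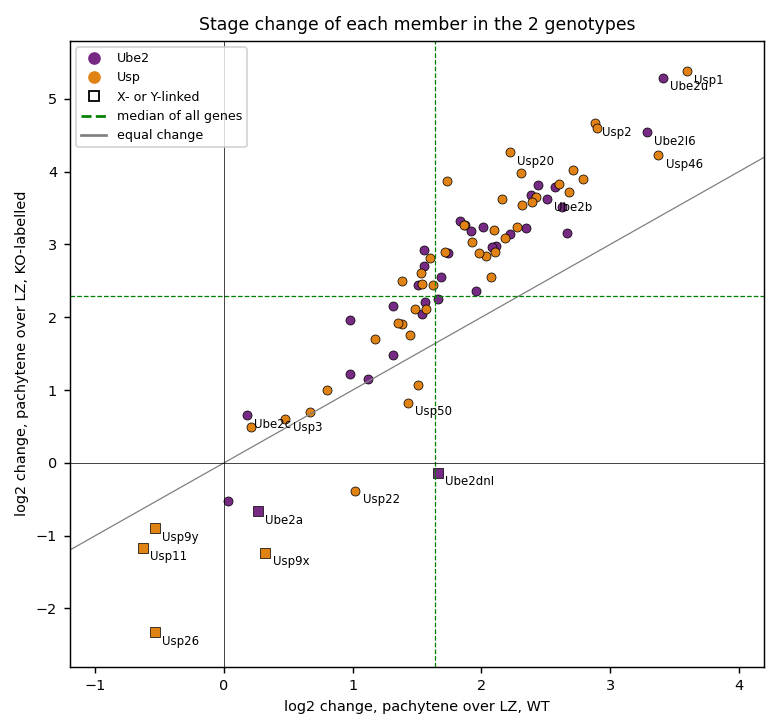
Log2 change of pachytene over LZ in KO-labelled (y axis) and WT libraries (x axis) for the 81 members tested, with the line of equal change and the medians of all genes at 2.29 and 1.64 (dashed). Most autosomal members lie above the line of equal change, and the X- and Y-linked members (squares) lie below it.

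In KO-labelled libraries the stage changes of the leading genes were Usp1 5.38, Ube2u 5.29, Usp2 4.66, Usp8 4.60, Ube2l6 4.54 and Usp20 4.27 on the log2 scale, all called under every alternative. Ube2l3 and Ube2j1 followed among the Ube2 genes, with 3.81 ± 0.22 SE, adjusted p = 1.52e-09 and 3.79 ± 0.20 SE, adjusted p = 1.03e-09. The lowest called autosomal genes averaging at least 5 scaled FPKM were Usp3, Ube2g1, Ube2z, Ube2v2 and Usp31. Their changes in KO-labelled libraries were 0.60, 1.15, 1.22, 1.49 and 1.70 as deposited, and -2.29, -1.69, -1.64, -1.43 and -0.62 after median-ratio scaling, in that order.

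Usp1, Ube2u, Usp46 and Ube2l6 had the largest stage changes in WT libraries. Usp1 had 743, 429 and 779 scaled FPKM in WT pachytene and 54.7, 57.9 and 41.8 in WT LZ libraries, a change of 3.60 ± 0.24 SE, adjusted p = 5.30e-08. Ube2u had 487, 574 and 639 in WT pachytene and 46.5, 58.6 and 51.9 in WT LZ libraries (3.41 ± 0.22 SE, adjusted p = 4.59e-08). Usp46 had 55.6, 46.3 and 69.5 and 5.23, 5.21 and 3.37 in the same order (3.38 ± 0.27 SE, adjusted p = 1.43e-07), and Ube2l6 had 126, 94.1 and 124 and 12.2, 12.3 and 8.25 (3.29 ± 0.26 SE, adjusted p = 1.29e-07). These 4 remained higher after median-ratio scaling, with 1.56, adjusted p = 8.52e-05 for Usp1, 1.37, adjusted p = 0.000879 for Ube2u, 1.48, adjusted p = 0.00089 for Usp46 and 1.31, adjusted p = 0.000208 for Ube2l6. Usp8 (2.90 ± 0.23 SE, adjusted p = 1.26e-07), Usp2 (2.88 ± 0.24 SE, adjusted p = 2.00e-07), Ube2e2 (2.67 ± 0.23 SE, adjusted p = 2.74e-07) and Ube2t (2.63 ± 0.20 SE, adjusted p = 9.63e-08) came next by the rule for each family.

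The smallest called stage changes in WT libraries, among members averaging at least 5 scaled FPKM at pachytene, turned their sign with the scaling. Usp3 had 51.4, 44.8 and 55.02 scaled FPKM in WT pachytene and 39.2, 38.4 and 30.6 in WT LZ libraries, a change of 0.48 ± 0.19 SE, adjusted p = 0.0359 as deposited and -1.53, adjusted p = 4.04e-05 after median-ratio scaling. Its call as deposited was lost without WT LZ replicate 2 (0.52) or 3 (0.36), KO-labelled LZ replicate 2 (0.48), WT pachytene replicate 1 (0.46) or 3 (0.41) or KO-labelled pachytene replicate 2 (0.48). Usp22 had 27.1, 14.6 and 24.5 in WT pachytene and 13.6, 10.4 and 7.04 in WT LZ libraries, with 1.02 ± 0.36 SE, adjusted p = 0.0186 as deposited, lost without WT LZ replicate 3 (0.79) or WT pachytene replicate 1 (0.86) or 3 (0.92), and -0.89 after median-ratio scaling. Ube2z, a partner of the E1 enzyme Uba6, changed by 0.98 and -0.98 in the same order, Ube2f by 0.98 and -1.06, Ube2g1, an E2 of lysine-48 chains, by 1.12 and -0.86, and Ube2v2 by 1.31 and -0.71. Usp31 and Usp28 changed by 1.17 and 1.35 as deposited and by -0.40 and -0.56 after median-ratio scaling. As deposited, all 8 lay below the median change of all genes, 1.64.

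No X- or Y-linked member was called higher with the stage. In KO-labelled libraries 4 of the 5 X-linked members tested were lower, where 18.8% of X-linked genes were higher and 28.8% lower. In WT libraries 0 of 5 were called in either direction as deposited, where 42.8% of X-linked genes were higher and 4.08% lower. After median-ratio scaling 5 of the 5 were lower in KO-labelled libraries (median -3.43), where 73.9% of X-linked genes were lower and 1.47% higher, and 4 of the 5 in WT libraries (median -1.73), where 46.6% were lower and 2.12% higher. Usp26 had 0.498, 1.70 and 1.31 in KO-labelled pachytene and 8.36, 10.7 and 9.81 scaled FPKM in KO-labelled LZ libraries, a change of -2.33 ± 0.31 SE, adjusted p = 6.10e-06, and 9.42, 5.54 and 7.86 in WT pachytene and 8.94 to 15.8 in WT LZ libraries (-0.54 ± 0.31 SE, adjusted p = 0.118). Usp9x had 8.65, 10.1 and 10.2 in KO-labelled and 12.7, 8.88 and 8.26 in WT LZ libraries, and its stage change was -1.23 ± 0.28 SE, adjusted p = 0.00113 in KO-labelled and 0.32 ± 0.28 SE, adjusted p = 0.301 in WT libraries. The stage change in KO-labelled libraries was -1.17 ± 0.38 SE, adjusted p = 0.0119 for Usp11, -0.90 ± 0.31 SE, adjusted p = 0.015 for Usp9y and -0.67 ± 0.25 SE, adjusted p = 0.0231 for Ube2a. Ube2dnl was not called in either genotype (-0.14 ± 0.79 SE, adjusted p = 0.88 in KO-labelled and 1.66 ± 0.79 SE, adjusted p = 0.066 in WT libraries). The Ube2a call was lost without KO-labelled LZ replicate 2 (-0.62) or 3 (-0.59) or KO-labelled pachytene replicate 1 (-0.44) or 2 (-0.67).

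The genotype difference itself differed between the stages for many members. The KO effect at pachytene minus that at LZ was called higher for 16 and lower for 1 of 34 Ube2 genes, and higher for 21 and lower for 3 of 47 Usp genes, where 34.9% of all genes were higher and 3.49% lower. The median over all genes was 0.72. After median-ratio scaling 0 Ube2 genes were higher and 1 lower, and 2 Usp genes were higher and 4 lower, against 2.37% and 4.36% of all genes. With equal totals, 0 members were higher, and 1 Ube2 and 4 Usp genes were lower, against 0.591% and 5.59% of all genes. Of the 5 X-linked members 0 were higher and 3 lower, where 0.817% and 23.4% of X-linked genes were. Usp26 (-1.79 ± 0.43 SE, adjusted p = 0.00917) and Usp9x (-1.56 ± 0.40 SE, adjusted p = 0.0119) were lower, and both calls held under all 19 alternatives. Usp22 (-1.40 ± 0.51 SE, adjusted p = 0.044) was lower as well, but was called without only 4 of the 12 libraries. It was lost with a pseudocount of 0.1 (adjusted p = 0.0549) or no filter (0.0715), and without WT LZ replicate 2 (-1.43) or 3 (-1.18), KO-labelled LZ replicate 2 (-1.40) or 3 (-1.28), WT pachytene replicate 1 (-1.24) or 3 (-1.31), or KO-labelled pachytene replicate 1 (-1.07) or 2 (-1.41). Ube2a was the Ube2 gene called lower (-0.93 ± 0.35 SE, adjusted p = 0.0499), and 0 Ube2 genes were called lower without WT LZ replicate 1 or 2, KO-labelled LZ replicate 3, any WT pachytene replicate, or KO-labelled pachytene replicate 1 or 2, and 2 without KO-labelled pachytene replicate 3. Ube2u (1.88 ± 0.31 SE, adjusted p = 0.00493), Usp1 (1.78 ± 0.34 SE, adjusted p = 0.00509) and Usp8 (1.70 ± 0.32 SE, adjusted p = 0.00509) had the smallest p among the higher ones, and after median-ratio scaling their differences were 0.97, 0.86 and 0.79 and not called. The higher calls became 9 Ube2 and 11 Usp genes without KO-labelled pachytene replicate 1 and 10 and 13 without KO-labelled pachytene replicate 2.

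Other genes of the ubiquitin pathway were set beside the families. Of 8 E1 genes tested, 2 were lower and 2 higher in KO-labelled pachytene libraries, the lower ones being sex-linked, beside 14.3% of all genes lower and 24.6% higher. Median-ratio scaling kept the same 2 lower calls and left 0 higher, against 9.62% of all genes lower and 3.57% higher. Uba1, the main ubiquitin E1 and X-linked, had 17.6, 16.7 and 17.6 in KO-labelled and 55.4, 30.1 and 37.6 scaled FPKM in WT pachytene libraries (-1.16 ± 0.27 SE, adjusted p = 0.0127). Ube1y1, its Y-linked homologue, had 1.68, 4.42 and 9.15 in KO-labelled and 34.9, 18.9 and 23.8 in WT pachytene libraries (-2.30 ± 0.39 SE, adjusted p = 0.00313). Of the 4 ubiquitin genes, Rps27a was higher at pachytene (0.74 ± 0.24 SE, adjusted p = 0.0301), a call lost after median-ratio scaling (0.39, adjusted p = 0.18). Ubb, a polyubiquitin gene needed for male meiosis in mice, had 25483, 24818 and 18051 in KO-labelled and 12959.5, 18594 and 18887 in WT pachytene libraries and was not called.

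A list of 40 tested genes held other deubiquitinases and related proteases, among them the Senp genes, whose proteases act on ubiquitin-like proteins. Of these 40, 10 were higher and 5 lower at pachytene in KO-labelled libraries, a share near the 24.6% and 14.3% of all genes. Median-ratio scaling left 0 higher and 3 lower, against 3.57% and 9.62% of all genes. Uchl1, which also marks spermatogonia, had 26.99, 56.7 and 67.4 in KO-labelled and 306, 299 and 249 scaled FPKM in WT pachytene libraries (-2.57 ± 0.33 SE, adjusted p = 0.000839). The 8 spermatogonia genes, which include Uchl1, summed to 377 to 563 in KO-labelled and 544 to 667 in WT pachytene libraries. Of these genes, 6 were lower and 1, Id4, was higher. Id4 had 333, 417 and 459 in KO-labelled and 199, 159 and 177 in WT pachytene libraries, and made up most of the KO-labelled sums. The part of spermatogonia was not tested. The X-linked Brcc3 and Otud5 were lower, with changes of -1.83 ± 0.29 SE, adjusted p = 0.00216 and -1.69 ± 0.31 SE, adjusted p = 0.00474. Of 39 E3 ligases of meiosis tested, 16 were higher and 2 lower, beside 24.6% and 14.3% of all genes, and the lower ones were the X-linked Huwe1 (-1.80 ± 0.31 SE, adjusted p = 0.00318) and Cul4b (-1.63 ± 0.30 SE, adjusted p = 0.00474). Siah1a had the highest change (1.15 ± 0.22 SE, adjusted p = 0.006). After median-ratio scaling 4 of the 39 were higher and 3 lower, against 3.57% and 9.62% of all genes. Of 7 partners of Usp proteins, Wdr20b, Wdr48 and Gmps were higher and 0 lower, beside 24.6% and 14.3% of all genes. All 3 calls were lost after median-ratio scaling (0.68, adjusted p = 0.169 for Wdr20b, 0.62, adjusted p = 0.122 for Wdr48 and 0.55, adjusted p = 0.0653 for Gmps). Of 8 E2-like genes with other names, 0 were called at pachytene, where 24.6% of all genes were higher and 14.3% lower.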

How the data were processed

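The authors deposited 1 table of FPKM values for 23235 genes, normalised between libraries with ERCC spike-in RNA per the deposited file's name, and gave TopHat2 2.1.1, Cufflinks 2.2.1 and the mm9 build in the submitters' processing notes. The formula of the spike-in scaling and the annotation are not given in the sources used here. Paired-end libraries were made from sorted cells per the labels' protocols. Only columns named for a sample were used, and 4 other columns were not. Read depth is unknown, since the files hold no counts. The deposited FPKM were taken as log2(value + 1), and genes with at least 1 in at least 3 libraries (15400) were fitted with limma 3.58.1 (trend) under R 4.3.3 in 1 model of the 4 groups, with Benjamini-Hochberg adjustment over all genes tested and a threshold of 0.05. Pachytene was compared with LZ in each genotype, KO-labelled with WT at each stage, and the KO effects between stages. Alternatives were pseudocounts of 0.1 and 5, no filter, a filter of 5, median-ratio scaling, scaling to equal totals, a replicate block, fits of only the groups compared, and the omission of each library.

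Members named in each comparison were the 4 highest and 4 lowest called changes per family where the higher of both groups averaged 5 or more, the 3 smallest p per direction for the difference between stages, and members of the role lists. Counts cover all members tested, and 1 Ube2 gene is not reported here by itself. The members and the lists were chosen with earlier results of these data known. Simulated data for KO against WT at pachytene held 15400 genes. Noise was drawn separately for each gene around its mean over all 12 libraries, without stage differences or shifts shared by a library. Of genes changed on the log2 scale, the fit called 93 of 100 changed by 2 and 27 of 100 changed by 1. Under these settings the fit also called 5 unchanged genes. Few genes were changed there, whereas 24.6% of all genes were called higher and 14.3% lower in the KO-labelled pachytene libraries. The shares of changes of these sizes and of unchanged genes that the fit calls in the measured libraries were not tested. Promoter sequences came from RefSeq on GRCm38.p6 and were matched by symbol, with no coordinates taken across builds. Of the 87 members, 40 overlap another gene in RefSeq, 14 of them a protein-coding one, and whether the counting used strand is not given in the sources used here.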

Additional observations from a re-analysis of the deposited data

Results flagged for a closer look

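The KO effect differed between pachytene and LZ, by the interaction term of limma, for members of both families. It was higher at pachytene for 16 of 34 Ube2 and 21 of 47 Usp genes and lower for 1 Ube2 and 3 Usp genes, where 34.9% of all genes were higher and 3.49% lower. After median-ratio scaling 0 Ube2 and 2 Usp genes were higher and 1 and 4 lower, against 2.37% and 4.36% of all genes. Among the named genes the KO effect at pachytene minus that at LZ was 1.88 for Ube2u, 1.70 for Usp8 and 1.78 for Usp1 on the log2 scale, and -1.79 for Usp26, -1.56 for Usp9x and -1.40 for Usp22. All 3 KO-labelled libraries lay above WT at pachytene and below WT at LZ for Ube2u, Usp8 and Usp1. These genes were named for the smallest p of this difference in the same libraries, so that pattern is no separate result. The share of all genes with it is not given here. Beside the values of the named genes stands the shift of all genes, whose median difference was 0.72.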

How the results depend on the processing

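The counts moved with the scaling between libraries. With median-ratio and total scaling, in this order, the pachytene over LZ counts in KO-labelled libraries were 8 and 2 higher and 13 and 18 lower for Ube2 genes, and 16 and 5 higher and 11 and 21 lower for Usp genes. In WT libraries they were 5 and 2 higher and 12 and 17 lower for Ube2, and 8 and 4 higher and 8 and 11 lower for Usp genes. For KO-labelled over WT at LZ both scalings gave 0 lower calls in either family, and total scaling gave 1 higher Usp call. At pachytene they gave 2 and 0 higher Ube2 and 7 and 0 higher Usp calls, and total scaling 4 lower Ube2 calls. For the difference between stages they gave 0 and 0 higher Ube2 and 2 and 0 higher Usp calls.

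Other settings moved counts as well. At LZ the lower Ube2 calls became 5 with a pseudocount of 5 and 0 in a fit of only the groups compared, and the lower Usp calls became 2 with a pseudocount of 5, 2 with no filter and 0 in a fit of only the groups compared. At pachytene the higher Ube2 calls became 5 in a fit of only the groups compared, and the lower Ube2 calls 1 with a pseudocount of 0.1. For the difference between stages the lower Ube2 calls became 0 with a pseudocount of 0.1 or no filter. In KO-labelled libraries the lower stage calls became 0 for Ube2 in a fit of only the groups compared and 2 for Usp genes with a filter of 5. The cause of these shifts was not tested.

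Signs turned under both scalings for members with small stage changes. With median-ratio and total scaling the KO-labelled changes were -1.69 and -2.19 for Ube2g1, -1.43 and -1.98 for Ube2v2, -1.64 and -2.16 for Ube2z, -2.29 and -2.81 for Usp3, and -0.62 and -0.96 for Usp31. The WT changes were -1.06 and -1.34 for Ube2f, -0.86 and -1.11 for Ube2g1, -0.71 and -0.98 for Ube2v2, -0.98 and -1.22 for Ube2z, -0.89 and -1.10 for Usp22, -0.56 and -0.79 for Usp28, -1.53 and -1.78 for Usp3, and -0.40 and -0.53 for Usp31. At pachytene total scaling gave -0.0293 for Ube2b and -0.0043 for Ube2j1.

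With 1 library left out at a time, the higher stage calls in KO-labelled libraries were 30 to 31 for Ube2 and 38 to 39 for Usp genes, with 0 to 1 Ube2 and 3 to 4 Usp genes lower. In WT libraries they were 30 to 31 and 35 to 42, with 0 to 1 Usp gene lower. The lower LZ calls ranged over 0 to 14 and 0 to 7. The pachytene calls ranged over 1 to 12 and 2 to 18 higher and 1 to 3 and 4 to 5 lower, and those of the difference between stages over 9 to 21 and 11 to 24 higher and 0 to 2 and 2 to 3 lower.

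The replicate numbers were not used to pair samples: same-numbered libraries had correlations of their deviations from the group means of -0.167 to 0.2587, over 0.1 in 7 of 18 pairs. With the replicate number as a block, the higher Ube2 calls at pachytene became 5 and the lower Ube2 calls of the difference between stages 0. Among the named genes the block ended the pachytene calls of Ube2b (0.54, adjusted p = 0.0606) and Ube2j1, the LZ calls of Ube2d3, Ube2v1, Ube2v2 and Usp8, the WT stage call of Usp3 and the difference between stages of Usp22, with adjusted p of 0.0509 to 0.0683. Read depth is unknown, so no counting limit can be set on low members such as Usp27x and Usp51.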
